A study of Mus musculus with 9 samples.

Results

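The smooth muscle type contractile programme was followed through 10 genes chosen by name, out of 47729 genes in the deposited table: Acta2, Actg2, Tagln, Cnn1, Myl9, Tpm1, Tpm2, Myh11, Lmod1 and Myocd. All 10 were matched to an identifier, 9 passed the filter on low values and Myocd did not. The cells were synovial fibroblasts, which line joints and build their matrix, grown for 5 passages from collagenase-digested paws of wild-type BALB/c mice and profiled by mRNA sequencing. The 3 naive libraries came from paws that received no crystals. For the 3 non-primed libraries, right paws had been given monosodium urate (MSU) crystals, the crystals of gout, on day 9. The 3 primed libraries came from left paws given MSU crystals on day 0 and again on day 9. RNA was taken at day 18. Left and right paws may come from the same mouse, and priming cannot be told apart from the side of the paw. The labels tie no library to a mouse, so p-values measure only the spread between these samples. Values are rlog values, which are normalized expression on a log2 scale, so a step of 1 is a doubling. The depth of the libraries is unknown.

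Fibroblasts that take on smooth muscle features are called myofibroblasts. They assemble alpha smooth muscle actin into contractile stress fibres, and do so readily on stiff culture plastic and under TGF-beta. Most genes of this programme are switched on by serum response factor (SRF), which binds a short DNA element called the CArG box together with a cofactor of the myocardin family.

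The promoter elements are shown because SRF binds such sites in smooth muscle genes. Whether they bear on the order of the libraries was not tested. RefSeq start sites on GRCm38.p6 gave a 300 bp window, 250 bp before to 50 bp after the start, for 6 of the 10 genes, namely Acta2, Cnn1, Myl9, Tpm1, Tpm2 and Lmod1. A CArG box was searched in its strict form and with up to 1 deviation in its 6 central bases, and the element reads the same way on both strands. Below, capitals mark the box and 10 bases of flank stand on each side, 5′ to 3′ on the strand of the gene. Acta2 lies on the minus strand and Myl9 on the plus strand. GENCODE M21 places both Acta2 sites in the 5′ UTR of the first exon of its transcript, while they lie 84 and 34 bases before the RefSeq start. The Myl9 sites lie 161 and 99 bases before the start, upstream of the annotated gene.
Acta2, chr19:34255438-34255467: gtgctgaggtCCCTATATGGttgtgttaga
Acta2, chr19:34255388-34255417: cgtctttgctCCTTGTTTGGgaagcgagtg
Myl9, chr2:156775293-156775322: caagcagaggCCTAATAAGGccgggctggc
Myl9, chr2:156775355-156775384: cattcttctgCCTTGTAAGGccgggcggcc
The Myl9 site 161 bases before the start was the only strict CArG box in the 6 windows, and the other 3 sites carry 1 deviation each. A strict box was present in 1.63% of all 32851 promoter windows, a box with up to 1 deviation in 9.98%, and at least 2 of the latter, as in Acta2 and Myl9, in 0.822%. The windows of Cnn1, Tpm1, Tpm2 and Lmod1 held no match. A match describes the sequence and not binding in these cells.

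None of the 9 tested contractile genes passed the test between groups. The feature that stood out was the naive group, which held both the highest and the lowest library for each of the 9 genes. Naive 3 was the highest of all 9 libraries and naive 2 the lowest for 9 of 9 genes, a pair of extremes found in 7.67% of the 15623 genes tested. Naive 1 was above naive 2 and below the 6 injected libraries for 9 of 9 genes. Levels in the injected cultures thus lay inside the naive range, and non-primed and primed libraries overlapped for each gene.

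**Figure D1:**
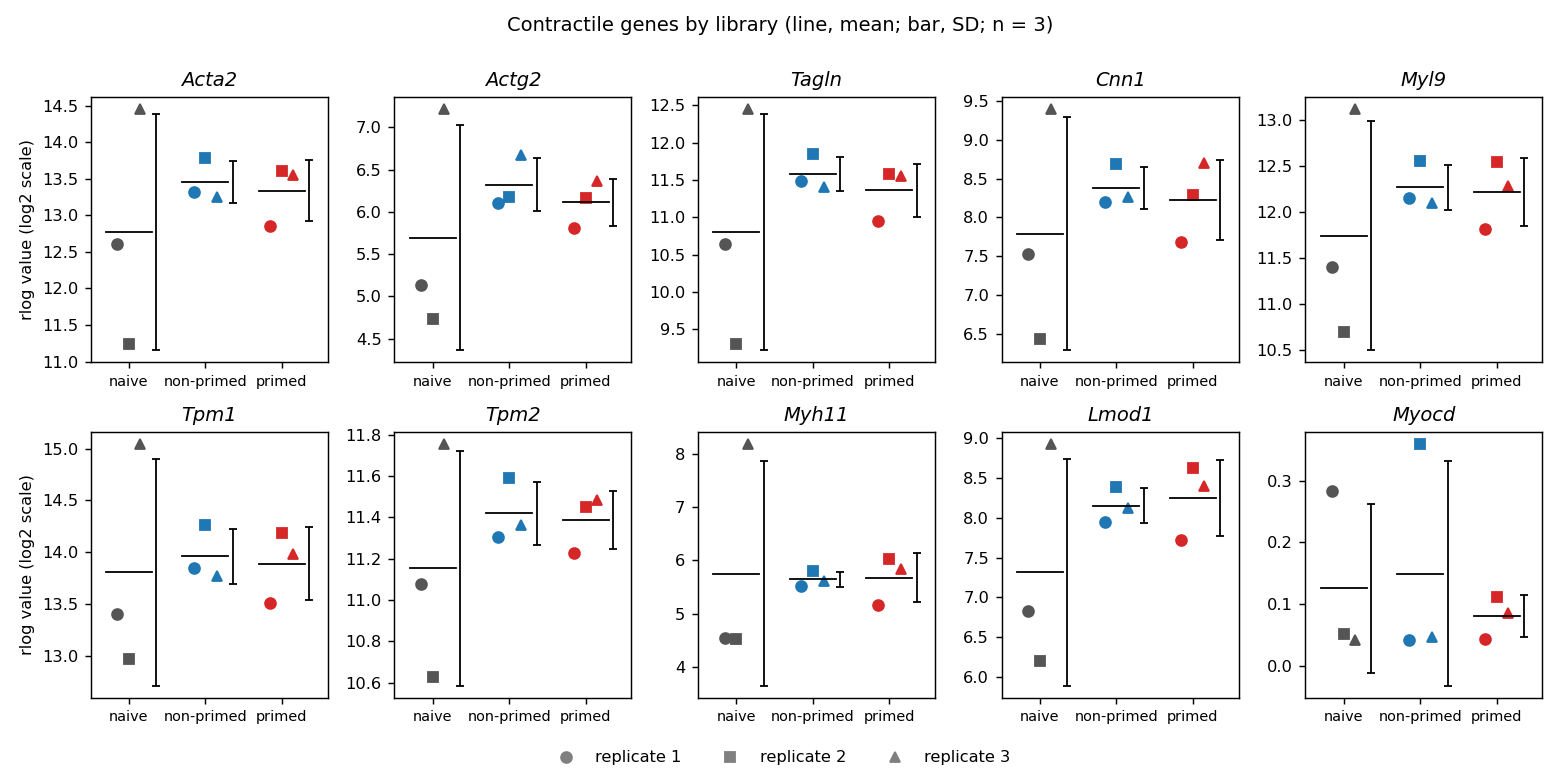
rlog values (log2 scale, vertical axis, scaled per gene) of the 10 contractile genes in naive, non-primed and primed libraries; symbols are the 3 replicates, lines are means and bars are SDs (n = 3). The naive symbols span the widest range in each panel except Myocd, with Acta2 from 11.24 to 14.46.

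The actins came first among the structural genes. Acta2 encodes alpha smooth muscle actin, the defining protein of myofibroblasts (ENSMUSG00000035783, GRCm38 chromosome 19, 34241090 to 34255590, minus strand). It stood at 12.61, 11.24 and 14.46 in naive 1, 2 and 3, at 13.32, 13.78 and 13.25 in non-primed 1, 2 and 3, and at 12.86, 13.61 and 13.55 in primed 1, 2 and 3. The 6 injected libraries spanned 0.92 log2 units and the 3 naive libraries 3.22, so the injected values all fell between naive 1 and naive 3. The naive mean was 12.77 ± 1.61, the non-primed mean 13.45 ± 0.29 and the primed mean 13.34 ± 0.42 (SD, n = 3). The difference from naive was 0.68 (SE 0.67, limma adjusted p = 0.673) in non-primed and 0.57 (SE 0.67, limma adjusted p = 0.697) in primed libraries. The 95% interval of the non-primed difference ran from -0.83 to 2.20 and that of the primed difference from -0.94 to 2.08, and both held falls and rises. The fit pools the variance over the groups, although the naive SD was well above both injected SDs. The SEs and p-values of the differences from naive are therefore too small and the intervals too narrow. The other tested contractile genes also had naive SDs above their injected SDs, so the same limit applies to them.

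Actg2 encodes the enteric form of gamma actin, made mainly by visceral smooth muscle (ENSMUSG00000059430, chromosome 6, 83512905 to 83536265, minus strand). It stood at 5.14, 4.73 and 7.22 in naive 1, 2 and 3, at 6.10, 6.17 and 6.68 in the non-primed and at 5.81, 6.16 and 6.36 in the primed libraries, each in the order 1, 2, 3. The pattern was that of Acta2, but non-primed 3, not non-primed 2, was the highest of the injected libraries. Differences from naive were 0.62 (SE 0.56) in non-primed and 0.42 (SE 0.56) in primed libraries. Actin genes are close paralogues, so reads could be split between them. Of the 50-base stretches in the Acta2 transcripts, 0.326% also occurred in transcripts of another gene, and 0 of those of Actg2 did.

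Among the proteins that bind the actin filament, Tagln, which encodes SM22 or transgelin (ENSMUSG00000032085, chromosome 9, 45929619 to 45936058, minus strand), followed Acta2 most closely. It stood at 10.65, 9.30 and 12.45 in the naive, at 11.48, 11.85 and 11.41 in the non-primed and at 10.95, 11.58 and 11.56 in the primed libraries 1, 2 and 3. The lowest and highest naive libraries were thus 3.15 log2 units apart, while all non-primed libraries lay within 0.43. The difference from naive was 0.78 (SE 0.64) in non-primed and 0.56 (SE 0.64) in primed libraries. Tagln overlaps exons of Pcsk7 and of an antisense transcript on the opposite strand, and since the strand setting of the counting is not given, its value is uncertain to that extent.

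Cnn1 encodes calponin, which restrains the myosin motor on actin (ENSMUSG00000001349, chromosome 9, 22099216 to 22109630, plus strand). It stood at 7.53, 6.44 and 9.40 in the naive, at 8.19, 8.68 and 8.26 in the non-primed and at 7.68, 8.29 and 8.70 in the primed libraries 1, 2 and 3. Primed 1 was only slightly above naive 1, and primed 3 was the highest injected library. The differences from naive were 0.59 (SE 0.63) in non-primed and 0.43 (SE 0.63) in primed libraries.

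The tropomyosins Tpm1 and Tpm2 lie along the actin filament and gate the access of myosin. Both are also made outside smooth muscle, through isoforms that a gene-level value does not separate. Tpm1 (ENSMUSG00000032366, chromosome 9, 67022590 to 67049406, minus strand) stood at 13.40, 12.97 and 15.04 in the naive, at 13.85, 14.26 and 13.77 in the non-primed and at 13.51, 14.19 and 13.98 in the primed libraries 1, 2 and 3. Tpm2 (ENSMUSG00000028464, chromosome 4, 43514711 to 43523765, minus strand) stood at 11.08, 10.63 and 11.75 in the naive, at 11.30, 11.59 and 11.36 in the non-primed and at 11.23, 11.45 and 11.48 in the primed libraries 1, 2 and 3. Tpm2 kept the same order of naive libraries with the narrowest span of the 9 genes, 1.13 log2 units. Differences from naive were 0.16 (SE 0.47) for Tpm1 and 0.27 (SE 0.24) for Tpm2 in non-primed libraries, and 0.09 (SE 0.47) and 0.23 (SE 0.24) in primed libraries.

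Lmod1 encodes leiomodin, which nucleates actin filaments in smooth muscle (ENSMUSG00000048096, chromosome 1, 135324807 to 135368065, plus strand). It stood at 6.82, 6.20 and 8.93 in the naive, at 7.95, 8.39 and 8.12 in the non-primed and at 7.72, 8.63 and 8.41 in the primed libraries 1, 2 and 3. Naive 3 exceeded primed 2, the highest injected library, by less than for the other genes apart from Tpm2, and Lmod1 had the widest gap between group means. The naive mean was 7.32 ± 1.43, the non-primed mean 8.15 ± 0.22 and the primed mean 8.25 ± 0.48 (SD, n = 3). The difference from naive was 0.84 (SE 0.60, limma adjusted p = 0.556) in non-primed and 0.93 (SE 0.60, limma adjusted p = 0.456) in primed libraries, with 95% intervals from -0.54 to 2.21 and from -0.44 to 2.31.

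The myosin genes behaved alike in the order of the naive libraries and unlike in size. Myl9 encodes the regulatory light chain whose phosphorylation starts contraction (ENSMUSG00000067818, chromosome 2, 156775420 to 156781658, plus strand). It stood at 11.41, 10.70 and 13.13 in the naive, at 12.15, 12.55 and 12.10 in the non-primed and at 11.82, 12.55 and 12.29 in the primed libraries 1, 2 and 3. Its differences from naive were 0.53 (SE 0.52) in non-primed and 0.47 (SE 0.52) in primed libraries. Myh11 encodes the smooth muscle myosin heavy chain, regarded as the most specific mark of mature smooth muscle (ENSMUSG00000018830, chromosome 16, 14194535 to 14291372, minus strand). It stood at 4.55, 4.52 and 8.19 in naive 1, 2 and 3, at 5.53, 5.80 and 5.62 in the non-primed and at 5.15, 6.04 and 5.84 in the primed libraries 1, 2 and 3. Naive 3 stood at 8.19 and the next library, primed 2, at 6.04, the widest such gap among the 9 genes. Naive 3 alone raised the naive mean to 5.75 ± 2.11 (SD, n = 3), so the difference was -0.10 (SE 0.86) in non-primed and -0.08 (SE 0.86) in primed libraries, although naive 1 and naive 2 were below all injected libraries.

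Myocd encodes myocardin, the SRF cofactor that drives the smooth muscle programme in development (ENSMUSG00000020542, chromosome 11, 65176561 to 65269989, minus strand). Its rlog values lay between 0.04 and 0.36 in all 9 libraries, below the filter at a mean of 3, so it was not tested. Values this low are near the bottom of the scale and no order was read from them. The related cofactor genes Mrtfa and Mrtfb, through which actin dynamics reach SRF, were measured at 8.34 to 8.73 and at 9.54 to 9.82. Srf itself ranged from 9.03 in naive 2 to 9.92 in naive 3, with 9.33 in naive 1, and the injected libraries lay at 9.48 to 9.89, the same order at the extremes as the contractile genes.

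**Figure D2:**
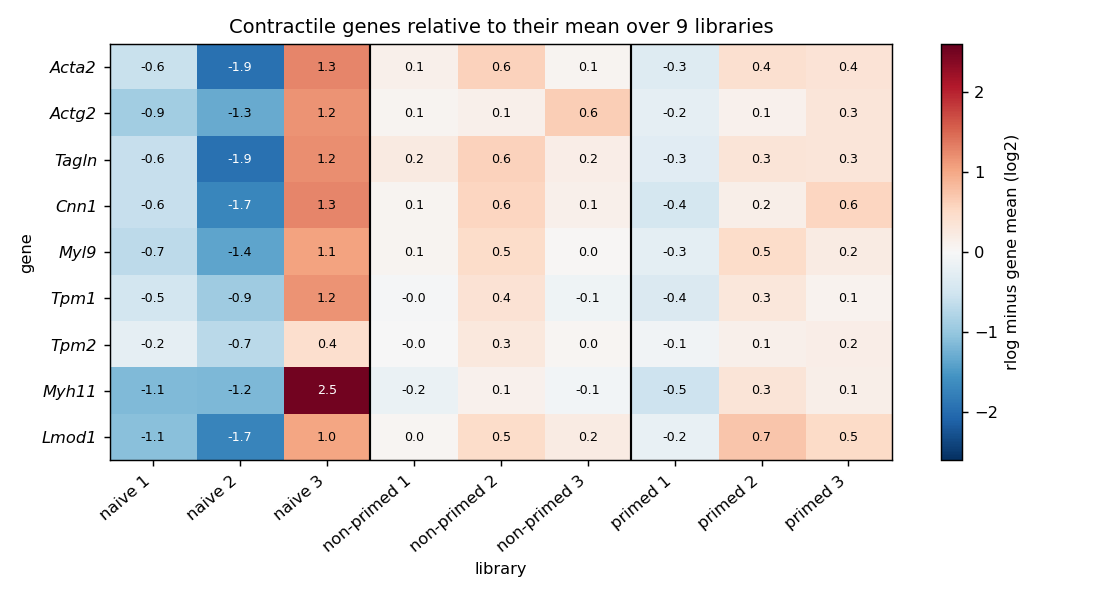
Each of the 9 tested genes (rows) in each library (columns) as the rlog value minus the mean of that gene over 9 libraries (log2, colour and number). Naive 3 is the highest and naive 2 the lowest column in every row, and primed 1 is the lowest of the 6 injected columns.

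The order of the libraries was shared in part by the genes beyond the naive extremes. Averaged over the 9 genes, the centred level was -0.70 in naive 1, -1.42 in naive 2 and 1.23 in naive 3. It was 0.04, 0.40 and 0.12 in non-primed 1, 2 and 3, and -0.31, 0.33 and 0.30 in primed 1, 2 and 3. Primed 1 was the lowest of the 6 injected libraries for 9 of 9 genes, as it was for 23.2% of all genes tested. Non-primed 2 was the highest of the non-primed libraries for 8 of 9 genes, the exception being Actg2. Naive 1 and naive 2 were both below the 6 injected libraries for 9 of 9 contractile genes and for 12.9% of all genes tested. These counts describe 1 shared pattern over 9 libraries and not 9 separate observations.

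The likeness to Acta2 was described by Pearson r over the 9 libraries, with no test, since the libraries share their scaling and the same extremes enter each value. Tagln reached 0.997, Tpm2 0.993, Myl9 0.987, Cnn1 0.986, Lmod1 0.957, Tpm1 0.940, Actg2 0.909 and Myh11 0.833. Over the 6 injected libraries alone, without the naive extremes, r with Acta2 was 0.882 to 0.980 for the others but 0.330 for Actg2. The tested genes outside the list that were most like Acta2 over 9 libraries were Cnn2, the calponin of non-muscle cells, at 0.994, Atp5b, a subunit of the mitochondrial ATP synthase, at 0.984, Ctnna1, the alpha catenin that links cadherins to actin, at 0.983, Ppfibp1 at 0.983 and Cct2, a subunit of the chaperonin that folds actin, at 0.980. The genes most like the mean standardised profile of the 9 were Ext1 at 0.988, Cnn2 at 0.982, Fhl2 at 0.980, Rell1 at 0.980 and Cct2 at 0.977. Cnn2 ran from 12.26 in naive 2 to 13.67 in naive 3, with 13.02 to 13.32 in the injected libraries.

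Because naive libraries differed so much in these genes, the spread was compared with that of the whole table. The median SD among naive libraries was 1.43 for the 9 contractile genes and 0.22 for all genes tested. Among non-primed libraries it was 0.25 against 0.10, and among primed libraries 0.37 against 0.14. The naive SD of Myh11 exceeded that of 99.9% of the genes tested, those of Acta2 and Tagln 99.4%, Cnn1 99.1%, Lmod1 98.9%, Actg2 98.4%, Myl9 97.9%, Tpm1 96.7% and Tpm2 85.3%. Per gene, the naive SD was 3.53 to 6.16 times the SD within the injected groups (median 3.98), beside a median of 1.77 over all genes tested. These ratios describe 3 libraries a group and were not tested.

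**Figure D3:**
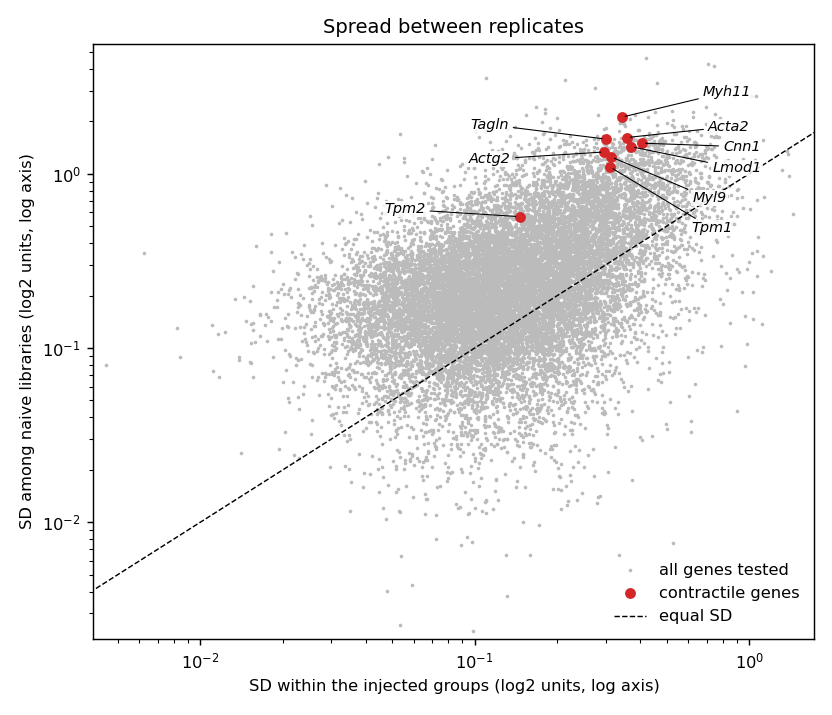
SD among the 3 naive libraries (vertical, log2 units, log axis) against the SD within the non-primed and primed groups (horizontal, root mean square of the 2 SDs, log2 units, log axis) for each gene tested, with contractile genes in red and the line of equal SD dashed. All 9 contractile genes lie above the line, and 8 of them, from Tpm1 upwards, lie at a naive SD of 1.10 or more.

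The contrast of injected with naive cultures asks what the crystals left in the cells after culture. For non-primed against naive libraries, 0 of 9 contractile genes passed an adjusted p of 0.05 (limma), where 0.141% of the genes tested did, and 0 of 9 reached an unadjusted p of 0.05, where 15.4% did. Their adjusted p-values ran from 0.556 to 0.968 (limma). The differences were positive for 8 of 9 genes with a median of 0.59, beside a median of 0.01 over all genes tested, and no gene separated the groups without overlap, as 21.9% of genes did. For primed against naive libraries, 0 of 9 passed (limma), where 0.102% of genes did, and 0 of 9 at an unadjusted p of 0.05, where 16.9% did. Their adjusted p-values ran from 0.456 to 0.974 (limma), 8 of 9 differences were positive with a median of 0.43, beside 0.00 over all genes, and 0 of 9 separated without overlap, as 17.1% of genes did. Both comparisons use the same naive libraries, and the overlap follows from the naive extremes given above, so it is no further result. With the moderated F over the 3 groups, 0 of 9 passed, where 0.0704% of genes did, and none of the 9 had an unadjusted p under 0.05, where 12.8% of genes did.

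These differences rested on which naive libraries entered. Without naive 3, all 9 genes were higher in both injected groups, by medians of 1.38 in non-primed and 1.18 in primed libraries. In that fit Lmod1 was 1.64 (limma adjusted p = 0.0415) and Actg2 1.38 (limma adjusted p = 0.0396) higher in non-primed libraries, and Lmod1 1.74 (limma adjusted p = 0.0450) in primed libraries, where 1.7% and 1.25% of genes passed. Without naive 2, where 2.27% and 2.28% of genes passed, the medians were 0.00 and -0.19, 5 of 9 genes in non-primed and 1 of 9, Lmod1, in primed libraries were higher than naive, and none of the 9 passed (limma). Without naive 1, where 0.531% and 0.359% of genes passed, the medians were 0.36 and 0.31, 7 of 9 genes were higher in each injected group, and none of the 9 passed (limma). With libraries weighted by their fit, Lmod1 was 1.49 higher in primed than in naive libraries (limma adjusted p = 0.0419) and was the only one of the 9 to pass. It also passed the F test in that fit. In that fit 3.97%, 4.69% and 13.5% of all genes passed in the 3 comparisons and 15.9% in the F test. Over all fits that left out 1 library, Lmod1 stayed above naive in both comparisons, by 0.28 to 1.64 in non-primed and 0.37 to 1.74 in primed libraries. Actg2, Tagln, Myl9 and Tpm2 stayed above naive in non-primed libraries only, with lowest values of 0.14, 0.031, 0.0025 and 0.0028. The other differences from naive changed sign with the naive library left out.

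**Figure D4:**
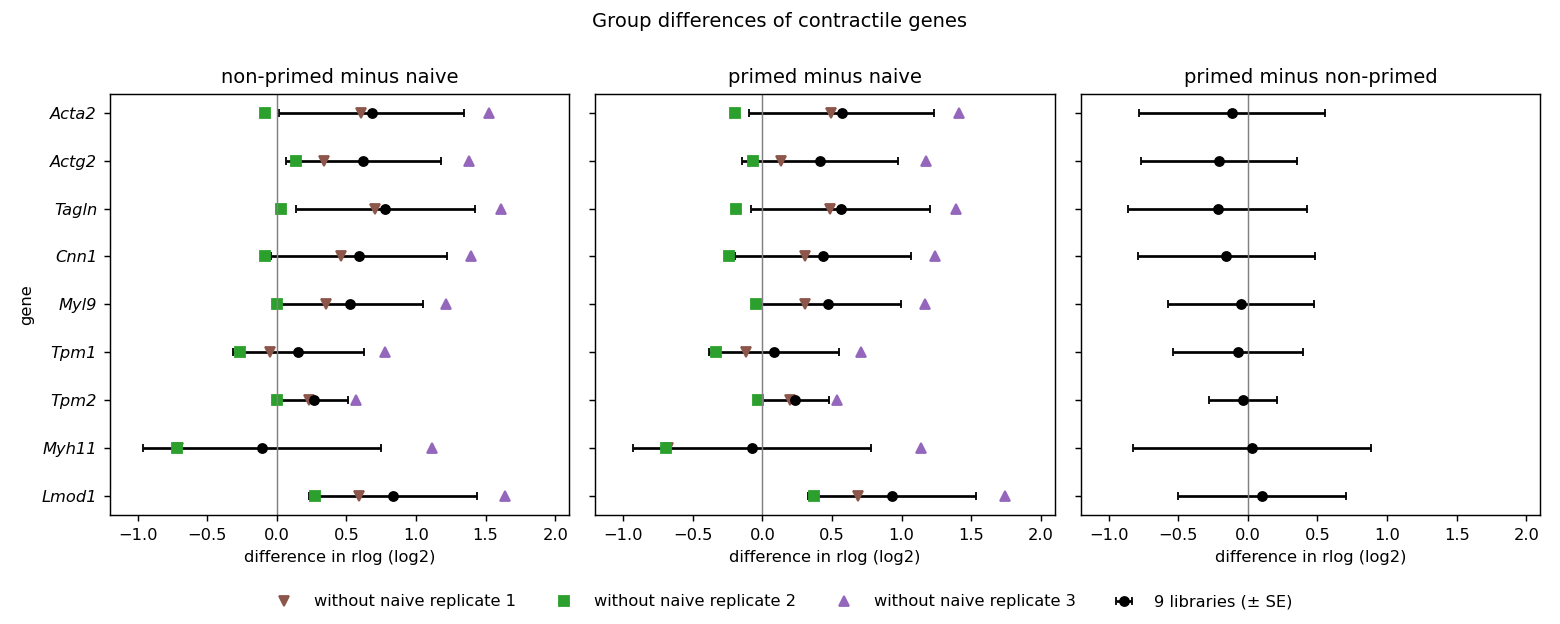
Difference in rlog (log2, horizontal) of the 9 tested genes in the 3 comparisons; black points are the fit to 9 libraries with bars of 1 SE, coloured symbols the differences without naive 1, 2 or 3. For Acta2 in non-primed against naive libraries the value moved from 0.68 to 1.53 without naive 3 and to -0.08 without naive 2.

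The contrast of the injected groups asks what a dose of crystals on day 0 added. The 9 genes differed by -0.22 to 0.10, with a median of -0.07 beside 0.00 over all genes, and 7 of 9 were lower in primed libraries. That count turned over with the libraries used: 7 of 9 were higher in primed without primed 1 (median 0.12), 6 of 9 without non-primed 2 (median 0.053) and 9 of 9 with sample weights (median 0.14). None of the 9 passed an adjusted p of 0.05 (limma), as 0.0% of genes did, none had an unadjusted p under 0.05, as 1.26% of genes did, and 0 of 9 separated without overlap, as 11.6% of genes did. Acta2 differed by -0.11 (SE 0.67, 95% interval from -1.63 to 1.40) and Lmod1 by 0.10 (SE 0.60, 95% interval from -1.27 to 1.47). That SE pools the wide naive spread. Between libraries of the same number, Acta2 differed by -0.46 for number 1 (primed minus non-primed), by -0.18 for number 2 and by 0.30 for number 3. For number 1 the primed value was lower for each of the 9 genes, from -0.53 for Tagln to -0.08 for Tpm2, and for number 3 it was higher for 8 of 9, from 0.12 for Tpm2 to 0.44 for Cnn1, Actg2 being the exception. Actg2 was lower in primed for all 3 numbers, at -0.30, -0.01 and -0.31, while the sign differed between numbers for the other 8 genes. In the blocked limma fit, which takes same-numbered libraries as pairs, 0 of 9 passed.

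Levels of different genes were compared per kilobase, as the mean rlog over 9 libraries minus the log2 of the total exon length in GENCODE M21. On that scale Acta2 stood highest at 12.05, followed by Myl9 at 11.86, Tpm1 at 11.19, Tagln at 10.26, Tpm2 at 9.78, Cnn1 at 6.68, Lmod1 at 5.93, Actg2 at 5.40 and Myh11 at 2.77. Acta2 and Myl9 were not apart beyond their spread, with a gap of 0.19 ± 0.23 (SD over 9 libraries), nor were Tagln and Tpm2, at 0.48 ± 0.57. In naive 2 both of these pairs stood in the opposite order, and the other neighbours kept theirs in 9 of 9 libraries. The gaps between Tpm2 and Cnn1, 3.10 ± 0.53, and between Actg2 and Myh11, 2.64 ± 0.56, were the widest. Acta2 was thus abundant in all 9 cultures, injected or not, while the smooth muscle heavy chain was near the bottom of the list. On the same scale Actb, the actin of all cells, stood at 14.77.

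Most non-muscle counterparts of the contractile genes shared the naive extremes, over a smaller range. Of 12 such genes, 7 were highest in naive 3 and lowest in naive 2, and their median span over 9 libraries was 0.83, beside 2.73 for the contractile genes. Actb ran from 15.55 in naive 2 to 16.50 in naive 3, with 16.13 to 16.47 in injected libraries, and Myl12a, a non-muscle light chain gene, from 13.03 to 14.50 with 13.57 to 13.72 in injected libraries. Myh9, the non-muscle heavy chain, was lowest in naive 2 at 14.99 and highest in primed 2 at 16.10. None of the 12 passed in any comparison (limma, adjusted p = 0.245 for Actg1 in non-primed against naive libraries, a difference of 0.57, SE 0.21). Actg1 and Tpm4 had the smallest p-values, Tpm4 at 0.35 (SE 0.16, limma adjusted p = 0.349).

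Of 16 other smooth muscle genes, a list chosen with earlier results of these data known, 1 was called higher in both injected groups and 0 lower. Of all genes tested, 0.115% were called higher in non-primed and 0.096% in primed libraries, and 0.0256% and 0.0064% lower. The called gene of the list was Lmcd1, a LIM domain protein gene, at 0.70 (SE 0.08, limma adjusted p = 0.0303) in non-primed and 0.84 (limma adjusted p = 0.0345) in primed over naive libraries. Lmcd1 did not follow the contractile pattern: naive 1, 2 and 3 stood at 10.32, 10.33 and 10.55 and the injected libraries at 11.08 to 11.34. Without any 1 library the Lmcd1 difference was 0.67 to 0.78 in non-primed and 0.79 to 0.92 in primed against naive libraries, but in both comparisons it no longer passed without non-primed 1, 2 or 3 or without primed 2 or 3. The limma adjusted p then ran from 0.0650 to 0.245 in the non-primed and from 0.0741 to 0.178 in the primed comparison. Des, the muscle intermediate filament gene desmin, was 0.94 (SE 0.34, limma adjusted p = 0.240) higher in non-primed libraries without passing, and it was lowest in naive 3 at 3.73. Synpo2, an actin-bundling gene, was likewise lowest in naive 3, at 5.64 against 6.17 to 7.14 elsewhere. In this list 5 of 16 genes were highest in naive 3 and lowest in naive 2, so the pattern did not extend to each smooth muscle gene.

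Control genes, SRF targets and matrix genes showed no call. Of 16 SRF cofactors, targets and antagonists, 10 myosin light chain control genes and 15 TGF-beta and myofibroblast matrix genes, 0 passed in any comparison (limma). In the list of SRF cofactors, targets and antagonists the smallest p-values were those of Tead1, a YAP partner, at -0.31 (SE 0.11, limma adjusted p = 0.235) and Smad3, the TGF-beta signal transducer, at -0.33 (SE 0.12, limma adjusted p = 0.235) in non-primed against naive libraries. Of the light chain control genes, Arhgef12 differed by -0.19 (SE 0.08) and Ppp1cb, the myosin phosphatase subunit, by 0.02 (SE 0.16) in that comparison. Ppp1cb differed by -0.30 (SE 0.16) in primed against naive and by -0.33 (SE 0.16) in primed against non-primed libraries, without passing. In the TGF-beta and matrix list Postn, the matricellular gene periostin, was 0.97 (SE 0.27, limma adjusted p = 0.174) higher in non-primed than in naive libraries. Tgfbr2, the TGF-beta type II receptor gene, was 0.31 (SE 0.09, limma adjusted p = 0.192) higher there, and neither gene passed. Medians of these 3 lists in non-primed against naive libraries were -0.11, -0.03 and 0.17. In the same order, 11 of 16, 6 of 10 and 5 of 15 genes were highest in naive 3, as 25.1% of all genes tested were. Both naive extremes of the contractile genes were met by 3, 1 and 0 genes, and by 7.67% of all genes tested. Ankrd1 ran from 5.55 in naive 2 to 8.48 in naive 3, while Tgfb2 was highest in naive 2 at 10.76 and lowest in naive 3 at 9.14.

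Markers of cells that carry contractile genes or that could be present in the cultures were read beside these values, and in bulk samples fewer cells of a type and less RNA per cell cannot be told apart. Summed levels are the log2 of the sum over the list. Of 9 pericyte and vascular mural markers 7 were tested and 0 passed, and the summed level was 12.33 to 12.62 in naive, 12.24 to 12.50 in non-primed and 12.17 to 12.57 in primed libraries. Higd1b was at 0 in all libraries. The summed mural level was 12.39, 12.33 and 12.62 in naive 1, 2 and 3. Naive 3 was the highest of all 9 libraries, but primed 2 was close at 12.57 and primed 1 was the lowest at 12.17. The mean rlog of the list was 7.33, 7.44 and 7.19 in naive 1, 2 and 3. By that measure naive 2 was the highest naive library and naive 3 the lowest, the reverse of the contractile genes. Single markers took different orders. In naive 1, 2 and 3 Cspg4 stood at 9.71, 9.60 and 10.77 and Rgs4 at 10.04, 9.31 and 10.68. Both took the contractile order among naive libraries only, while Rgs5, at 8.97, 10.34 and 7.59, was opposite at the extremes. The injected libraries lay at 9.13 to 10.06 for Cspg4 and at 8.73 to 9.25 for Rgs4, below all naive libraries for Rgs4. Over 9 libraries, Pearson r with Acta2 was 0.750 for Mcam, 0.523 for Cspg4, 0.178 for Ndufa4l2, 0.163 for Rgs4 and 0.014 for Notch3. It was -0.593 for Abcc9 and -0.856 for Rgs5. Ndufa4l2 (0.75, SE 0.15) and Rgs4 (-1.14, SE 0.29) had the smallest p-values in the list without passing in non-primed against naive libraries. Of 13 skeletal and cardiac muscle markers 7 were tested and 0 passed, with summed levels of 7.28 to 7.53 in naive, 7.95 to 8.83 in non-primed and 7.55 to 9.06 in primed libraries. Myh1 was 1.47 (SE 0.465) and Tnni2 0.77 (SE 0.27) higher in non-primed libraries without passing, and neither that list nor any of its 7 tested genes was highest in naive 3.

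Of 10 macrophage markers 0 passed, and their summed level was 13.00 to 15.68 in naive, 15.74 to 16.24 in non-primed and 15.53 to 16.76 in primed libraries, so macrophage RNA was present throughout. Their mean rlog was 7.68 in naive 1, 9.84 in naive 2 and 7.34 in naive 3, with naive 2, the lowest library for contractile genes, as the highest naive library. Cd68 differed by 1.68 (SE 0.48) and Ptprc by 2.08 (SE 0.58) in non-primed against naive libraries without passing. Of 6 adipocyte markers 4 were tested and 0 passed, Lep was at 0 in all libraries, and the summed level was 8.91 to 10.76 in naive, 9.39 to 9.54 in non-primed and 9.58 to 9.76 in primed libraries. Adipoq differed by -2.56 (SE 0.86) and Cfd by -2.83 (SE 1.03) without passing, and the mean rlog of the list was 5.62, 5.73 and 3.61 in naive 1, 2 and 3, the reverse of the contractile order at naive 3. Of 8 endothelial markers 4 were tested, with Vwf at 1.05 (SE 0.25) and Pecam1 at -0.47 (SE 0.31), and 0 passed. Summed endothelial levels were 7.44 to 9.54 in naive, 8.46 to 8.70 in non-primed and 8.13 to 8.59 in primed libraries. In naive 1, 2 and 3 the endothelial sum was 7.44, 8.12 and 9.54, with naive 3 the highest of all 9 libraries. That sum was carried mainly by Tek, the angiopoietin receptor gene, at 6.89, 7.59 and 9.38 in these libraries. The mean rlog of the list was 2.96, 3.74 and 3.44, highest in naive 2. Pecam1 stood at 3.12, 4.12 and 2.79 in naive 1, 2 and 3, so the list held no single order. The part of these cells in the contractile values was not tested.

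**Figure D5:**
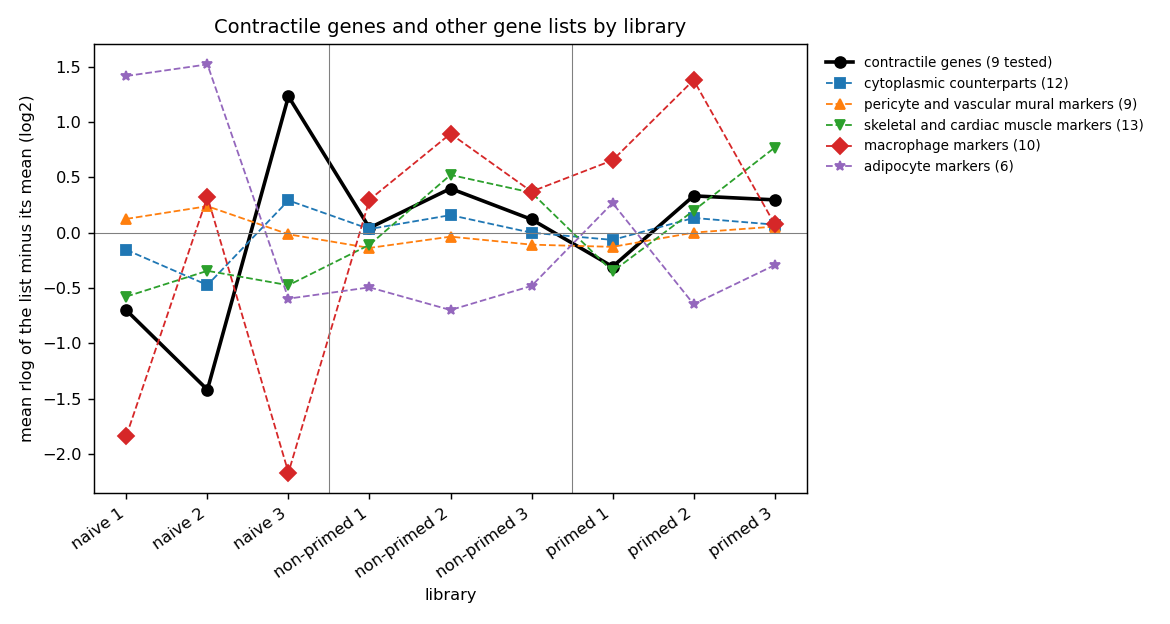
Mean rlog of each gene list minus its mean over 9 libraries (log2, vertical) by library (horizontal), with contractile genes in black. The contractile genes run from -1.42 in naive 2 to 1.23 in naive 3, the non-muscle counterparts span a smaller range, and macrophage and adipocyte markers take other orders.

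The label of synovial fibroblasts was met by fibroblast markers in each library. All 10 were tested and 0 passed, and their summed level was 17.52 to 18.28 in naive, 17.80 to 17.95 in non-primed and 17.64 to 17.95 in primed libraries. Pdpn, podoplanin, had the smallest p-value, at 0.56 (SE 0.10, limma adjusted p = 0.0815) in non-primed against naive libraries, and Vim the next, at 0.28 (SE 0.18). Prg4, the lubricin gene of lining fibroblasts, was lowest in naive 3 at 8.34 and highest in naive 2 at 12.01, the inverse of the contractile genes at both extremes. Thy1, a surface marker of fibroblasts, was highest in naive 3 at 13.55 and lowest in naive 2 at 12.41, as the contractile genes were, and Pdgfrb, a PDGF receptor gene also made by mural cells, was highest in naive 3 at 14.83 against 13.18 to 14.08 elsewhere. Of the 10 fibroblast markers, 2 were highest in naive 3 and 3 lowest in naive 2. Like Prg4, the markers Pdgfra at 16.25, Dcn at 15.61, Lum at 15.34 and Col1a1 at 14.19 were highest in naive 2. The list thus held no single order.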

How the data were processed

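The table the authors deposited holds regularised log2 (rlog) expression of 47729 genes in 9 libraries, per the file headers. Per the submitters' processing notes, the tools were cutadapt 2.5, STAR 2.5.4a, Subread 1.6.1 with featureCounts, and DESeq2, on GRCm38. No source used here gives the annotation release, the strand setting or the rlog settings. The transformation scales for depth and draws weakly expressed genes towards their mean, so their differences are understated. Depth is unknown and the precision is that of 3 libraries a group.

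Groups came from the sample titles. Symbols matched 47224 identifiers. Genes that varied with a mean rlog of at least 3 were tested, 15623 in all. All 9 libraries entered 1 limma 3.58.1 fit, with a mean for each group, in R 4.3.3, with a mean-variance trend, two-sided tests and Benjamini-Hochberg adjustment over all genes tested. The fit was checked on simulated data that gave all 9 libraries the spread of the injected groups. That check does not cover the wider naive spread, which the pooled variance understates in comparisons with naive libraries. An exact test of 3 against 3 libraries cannot give a two-sided p below 0.1 and was not used. The members and the 12 other lists were chosen with earlier results of these data known. The result of 1 of these lists is not reported here. Of other lists, the genes past the threshold and the 2 with the smallest F p-values are named, with paralogues, and the 5 genes most like Acta2 and the mean profile. Srf, Synpo2, Rgs5, Cspg4, Mcam, Notch3, Abcc9, Tek, Prg4, Thy1, Pdgfrb, Pdgfra, Col1a1, Dcn, Lum, Ankrd1, Tgfb2, Myl12a, Myh9 and Actb are named after their values were seen.

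By the design text a replicate number need not mark a mouse. Deviations from group means of same-numbered non-primed and primed libraries correlated at 0.418, 0.608 and 0.100 across genes, the last just above the bound of 0.1 for taking numbers as pairs. Unlike-numbered libraries of these groups correlated at -0.497 to 0.275. The highest of these, non-primed 3 with primed 1, exceeded the value for number 3. The alternatives comprised 2 other filters, no variance trend, 2 groups alone, sample weights, quantile normalization, the replicate block and leaving out each library.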

Additional observations from a re-analysis of the deposited data

How the results depend on the processing

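Of the recomputed differences of the 9 genes, 398 kept their direction and side of the threshold, 39 changed sign and 4 newly passed. With no filter, a mean of at least 5, no variance trend, the 2 groups alone or quantile normalization, none of the 9 passed (limma). With the replicate number as a block, none passed either and the median differences stayed at 0.59, 0.43 and -0.07 (non-primed minus naive, primed minus naive, primed minus non-primed), and the block with the 2 injected groups alone, chosen after seeing the data, gave 0 calls. With sample weights 1 gene passed in primed against naive libraries and 1 in the F test. There, Myh11 turned to 0.66 in non-primed and 0.92 in primed against naive libraries, and between primed and non-primed libraries Acta2 turned to 0.18, Actg2 to 0.14, Tagln to 0.030, Cnn1 to 0.38, Myl9 to 0.11, Tpm1 to 0.11 and Tpm2 to 0.14. Leaving out each library in turn gave 0 to 2 calls in non-primed and 0 to 1 in primed against naive libraries. Non-primed minus naive then ran from -0.082 to 1.53 for Acta2, -0.088 to 1.39 for Cnn1, -0.26 to 0.78 for Tpm1 and -0.72 to 1.12 for Myh11. Primed minus naive ran from -0.20 to 1.41 for Acta2, -0.066 to 1.18 for Actg2, -0.19 to 1.39 for Tagln, -0.24 to 1.24 for Cnn1, -0.048 to 1.17 for Myl9, -0.33 to 0.71 for Tpm1, -0.030 to 0.53 for Tpm2 and -0.69 to 1.14 for Myh11. Primed minus non-primed ran from -0.25 to 0.13 for Acta2, -0.39 to 0.12 for Cnn1, -0.22 to 0.15 for Myl9, -0.22 to 0.12 for Tpm1, -0.090 to 0.053 for Tpm2, -0.15 to 0.29 for Myh11 and -0.092 to 0.36 for Lmod1. Lmcd1 also no longer passed with no filter, no variance trend or the 2 groups alone (limma adjusted p = 0.0586 to 0.268). Over all genes, 22 passed in non-primed against naive libraries, 0 with no filter, 5 without the trend, 7 in the 2 groups alone, 621 with sample weights and 17 with the block. In primed against naive libraries 16 passed, 0 with no filter, without the trend or in the 2 groups alone, 733 with sample weights and 51 with the block. Without any 1 non-primed library or primed 2, 0 genes passed in either comparison, and without primed 3, 1 in each. Without primed 1, 48 and 58 passed. The causes were not tested. Low genes are limited by the shrinkage of the rlog scale.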
